A study of Homo sapiens with 4 samples.

Results

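The Toll-like receptor (TLR) family was described in BLaER1 cells after knockdown of the long non-coding RNA HAL7. BLaER1 is a leukaemic human B cell line with a transgene for the myeloid factor C/EBPα, whose induction turns the cells towards macrophages. The members were chosen by name, TLR1 to TLR10, and all 10 were found by Ensembl ID among the 43450 genes of the deposited table. The groups were 2 control libraries (replicates 0 and 1) and 2 HAL7 knockdown libraries (replicates 0 and 1) of polyadenylated RNA. Per the labels' protocols, 3 LNA GapmeRs against HAL7 were put into the medium and not transfected. No source used here states what the controls received, the treatment time or whether the C/EBPα transgene was induced. GapmeRs are single-stranded oligonucleotides with a DNA core that recruits RNase H. Separate cultures are not named in the labels, so p-values reflect only library-to-library spread, which may be technical. Values of a group are given in the order replicate 0, replicate 1 throughout.

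TLRs are membrane receptors that recognise microbial molecules. TLR1, TLR2, TLR6 and TLR10 belong to one subfamily, in which TLR2 pairs with TLR1 or TLR6 to bind lipopeptides. TLR4 senses lipopolysaccharide together with LY96 (MD-2), and TLR5 senses flagellin. TLR3, TLR7, TLR8 and TLR9 sit in endosomes and sense nucleic acids: double-stranded RNA by TLR3, RNA and its breakdown products by TLR7 and TLR8, and DNA with unmethylated CpG by TLR9. Signals pass through the adaptors MYD88 or TICAM1 (TRIF) to NF-κB and interferon regulatory factors. B cells are known for TLR1, TLR6, TLR7, TLR9 and TLR10, monocytes for TLR2, TLR4, TLR5 and TLR8, and plasmacytoid dendritic cells for TLR7 and TLR9.

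Some members of the family lie close in sequence or position, which bears on how reads can be assigned to them. TLR10, TLR1 and TLR6 are neighbours on the minus strand of chromosome 4, at chr4:38772239-38782990, chr4:38790677-38856817 and chr4:38823715-38856817 in GENCODE release 29 on GRCh38. The authors' build was hg19, so these positions serve only as annotation. Each of the 3 genes has its whole coding sequence in 1 exon, of 2433, 2358 and 2388 bases. The longest identical run of TLR1 and TLR6 coding sequence is 218 bases, from coding base 1379 to 1596 of TLR1 and from 1394 to 1611 of TLR6. It is shown because a read inside it cannot be given to one gene by its sequence alone. The lines give 5′ to 3′ coding sequence from GENCODE transcripts (TLR1 chr4:38797216-38797473 and TLR6 chr4:38827843-38828100, minus strand, GRCh38), with the shared run in capitals and 20 bases on each side in lower case.
TLR1: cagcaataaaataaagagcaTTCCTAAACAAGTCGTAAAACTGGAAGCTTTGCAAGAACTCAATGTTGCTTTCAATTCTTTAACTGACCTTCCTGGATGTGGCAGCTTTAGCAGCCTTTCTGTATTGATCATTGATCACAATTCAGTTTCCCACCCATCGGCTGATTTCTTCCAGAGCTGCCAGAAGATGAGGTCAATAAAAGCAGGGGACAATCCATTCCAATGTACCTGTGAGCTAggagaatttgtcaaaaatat
TLR6: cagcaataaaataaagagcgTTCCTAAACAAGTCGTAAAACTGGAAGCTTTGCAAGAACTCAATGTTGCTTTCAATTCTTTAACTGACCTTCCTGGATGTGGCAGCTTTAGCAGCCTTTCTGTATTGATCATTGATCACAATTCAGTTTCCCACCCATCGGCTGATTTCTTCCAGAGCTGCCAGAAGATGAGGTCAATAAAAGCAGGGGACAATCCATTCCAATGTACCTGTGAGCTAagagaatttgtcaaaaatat
Of all stretches of 50 coding bases in TLR1, 10.3% also occur in TLR6, and of stretches of 100 bases 5.27% do. Among the 45 pairs of members, TLR1 and TLR6 were the only pair that shared any stretch of 50 coding bases. TLR10 shared a longest run of 37 bases with each of them. The read length is not stated in these sources, and how the authors' counting shared out such reads is not known, so the values of TLR1 and TLR6 carry that uncertainty. It weighs more on TLR6, whose mean over the 4 libraries was 0.26 FPKM, against 6.25 FPKM for TLR1.

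The annotated start of TLR6 is also the start of 1 of the 10 TLR1 transcripts, ENST00000506146.5, and the models of TLR1 and TLR6 share 57 exon bases. The window around this common start, from 250 bases before it to 50 after, is printed from RefSeq (GRCh38.p14, chr4:38856768-38857067, minus strand, 5′ to 3′), with the match to the PU.1 core GAGGAA in capitals (here on the other strand).
TLR6 start: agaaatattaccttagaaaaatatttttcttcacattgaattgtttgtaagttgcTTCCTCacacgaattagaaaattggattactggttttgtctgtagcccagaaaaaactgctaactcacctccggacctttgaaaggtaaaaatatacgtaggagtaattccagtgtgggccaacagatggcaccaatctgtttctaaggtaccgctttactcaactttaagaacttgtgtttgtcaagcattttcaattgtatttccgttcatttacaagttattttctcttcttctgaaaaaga
The window has 5 CpG sites, against a median of 14 over the 35116 RefSeq promoters of that length. Of the 10 members, 7 had such an entry, all except TLR1, TLR7 and TLR10. GAGGAA, searched on both strands, was found in 3 of the 7 (TLR4, TLR6 and TLR9) and in 27.9% of all promoters. TATAAA, the TATA box core, was found in TLR9 and in 11.5% of all promoters. The RefSeq window of TLR9 (chr3:52225596-52225895, minus strand) lies downstream of the GENCODE start site of TLR9 at 52226163. Its matches thus belong to another annotated start. These matches are descriptions of letters and do not show that a factor binds.

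Between 12902 and 12974 genes reached 1 FPKM in a library. FPKM counts fragments per kilobase of transcript, relative to library size, and is thus a level per length, so levels of different genes can be set side by side. The steps between low values put relative depth at 1 and 2.11 in the controls and at 1.77 and 1.59 after knockdown. HAL7 itself stood at 0.726 and 0.613 FPKM in the controls and at 0.475 and 0.347 FPKM after knockdown. The HAL7 groups did not overlap, but 27.7% of all tested genes were also lower without overlap. The ratio of the HAL7 means was 0.614. Its change on log2(FPKM + 1) was -0.24 and missed the threshold (limma adjusted p = 0.32). The 1 added to each FPKM exceeds the HAL7 levels, so this log2 change understates the difference. The most abundant pre-B cell markers were DNTT, a DNA polymerase gene of V(D)J joining, and IGLL1 and VPREB1, the surrogate light chain genes. DNTT stood at 1463 and 1478 FPKM in the controls and at 1476 and 1392 FPKM after knockdown, and the means of IGLL1 and VPREB1 over all libraries were 913 and 395 FPKM. The pre-B list of 12 genes summed to 4120 to 4140 FPKM in control and 4020 to 4050 FPKM in knockdown libraries. Its log2 changes were positive in 3 genes and negative in 9. Of 14 monocyte or macrophage markers, 3 (CSF1R, CD68 and CEBPA) reached a mean of 1 FPKM, and S100A8, S100A9, MNDA and FCGR3A were listed at 0 in every library. The monocyte list summed to 83.5 to 84.4 FPKM in control and 65.4 to 78.5 FPKM in knockdown libraries. Most of that sum is CEBPA, which encodes the same factor as the line's transgene, and CSF1R. CEBPA stood at 43.5 and 45.6 FPKM in the controls and at 28.4 and 37.7 FPKM after knockdown (limma adjusted p = 0.21), while CSF1R stood at 36.3 and 34.8 FPKM in the controls and at 33.8 and 38.0 FPKM after knockdown, with overlapping groups. Of 8 plasmacytoid dendritic cell markers, 2 (TCF4 and SERPINF1) reached a mean of 1 FPKM, PTCRA was next at 0.706 FPKM, IL3RA was listed at 0 in every library, and the list summed to 124 to 127 FPKM in control and 111 to 121 FPKM in knockdown libraries. Of 9 T cell or NK cell markers only NKG7 reached that mean, at 23.4 FPKM, CD8A and KLRD1 were next at 0.0618 and 0.0467 FPKM, CD3D, CD3G and CD2 were listed at 0 throughout, and the list summed to 27.3 to 27.7 FPKM in control and 17.3 to 22.1 FPKM in knockdown libraries. Most of the plasmacytoid dendritic cell sum is TCF4 and SERPINF1, at means of 93.5 and 25.9 FPKM. The T cell or NK cell sum is mostly NKG7. Which cells this RNA came from was not tested. The part of the 3 lists other than the pre-B one in the values below was not tested either. In bulk RNA, fewer cells of a type and less RNA per cell cannot be told apart.

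Of the 10 members, 2 carried most of the family's signal. TLR1 and TLR10 together made up 75.5% and 75.7% of the summed FPKM of the 10 genes in the controls, and 77.1% and 81.2% after knockdown. Ordered by mean over the 4 libraries, TLR1 came first at 6.25 FPKM, followed by TLR10 at 3.87, TLR9 at 0.924, TLR2 at 0.565, TLR5 at 0.353, TLR3 at 0.317, TLR7 at 0.283, TLR6 at 0.260 and TLR4 at 0.237 FPKM. TLR8 was listed at 0 in all 4 libraries. The ranges over the 4 libraries were apart between TLR1 and TLR10, between TLR10 and TLR9, between TLR9 and TLR2, and between TLR4 and TLR8. From TLR2 to TLR4 each neighbour's range overlapped the next, so their order is not resolved. An exact 0 in this table can be a failed estimate, so TLR8 is described only as listed at 0.

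**Figure D1:**
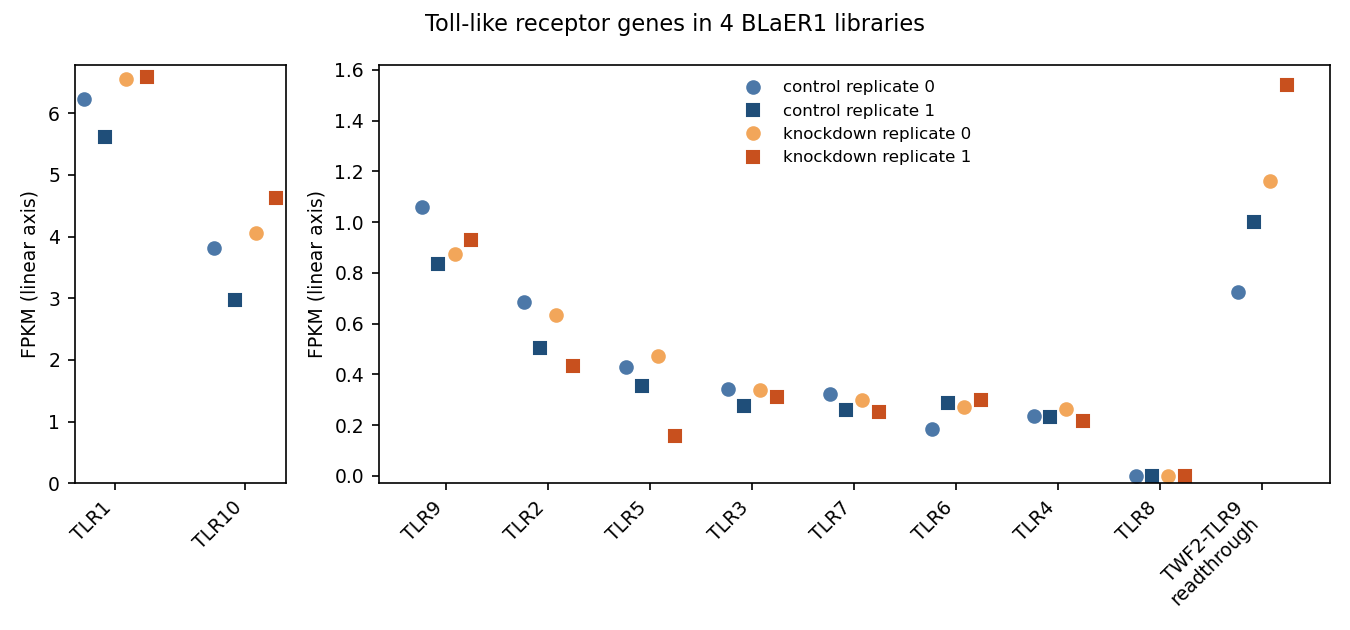
Level of each Toll-like receptor gene in FPKM (linear axes, different in the left and right panels) in the 4 libraries; each point is 1 library. TLR1 and TLR10 lie between 2.97 and 6.59 FPKM, TLR2 to TLR7 lie below 0.7 FPKM, TLR8 is listed at 0, and the gene model that overlaps TLR9 is drawn at the right.

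For the comparison of knockdown with control, 2 of the 10 members, TLR1 and TLR10, had a mean of at least 1 FPKM and entered the limma fit on log2(FPKM + 1) over 12935 genes. Of these 2, 0 passed an adjusted p of 0.05, where 0.0309% of all tested genes did, and 1 (TLR10) had an unadjusted limma p under 0.05, as 16.6% of all tested genes did. Both had knockdown libraries above control libraries with no overlap, which 22.5% of all tested genes showed in that direction. With the filter lowered to a mean of 0.1 FPKM, 9 members were tested among 18026 genes, and 0 passed, where 0.00555% of all did. In that fit 5 members had a positive and 4 a negative log2 change, with a median of 0.01 against -0.01 over all genes. None of the 9 had an unadjusted limma p under 0.05 there, where 14% of all genes did. With 2 libraries a group, the smallest p an exact permutation test allows is 0.333, so only the fit across genes was used.

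Within the TLR2 subfamily, TLR10 had the largest difference of the members. TLR10, which has no firmly established ligand and is found mainly in B lineage cells, stood at 3.81 and 2.97 FPKM in the controls and at 4.06 and 4.63 FPKM after knockdown. The lower control library was replicate 1, and the gap between control replicate 0 and knockdown replicate 0 was smaller than the gap between the control libraries. The means were 3.39 ± 0.599 and 4.35 ± 0.405 FPKM (SD, n = 2 per group), and their ratio was 1.28. The log2 change was 0.29 ± 0.11 (SE), with a 95% interval of 0.02 to 0.56 and a limma p of 0.040, or 0.28 adjusted over all genes. Without control replicate 1 the log2 change was 0.15, and without control replicate 0 it was 0.43.

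TLR1, the partner of TLR2 for triacylated lipopeptides, stood at 6.23 and 5.62 FPKM in the controls and at 6.56 and 6.59 FPKM after knockdown. Control replicate 1 was again the lowest library. The means were 5.93 ± 0.431 and 6.58 ± 0.024 FPKM (SD, n = 2 per group), and their ratio was 1.11. The log2 change was 0.13 ± 0.07 (SE), with a 95% interval of -0.04 to 0.30 and a limma adjusted p of 0.41. Without control replicate 1 the log2 change was 0.07, and without control replicate 0 it was 0.19. The libraries stood in the same order for both neighbours, control replicate 1 lowest, then control replicate 0, knockdown replicate 0 and knockdown replicate 1. The level of TLR1 over that of TLR10 was 1.63 and 1.90 in the controls and 1.62 and 1.42 after knockdown.

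TLR6, the other TLR2 partner and the third gene of the cluster, stood at 0.184 and 0.286 FPKM in the controls and at 0.270 and 0.299 FPKM after knockdown. Its groups overlapped, and the lowest value was in the library of least depth. How much of the TLR6 level comes from reads shared with TLR1 is not known. TLR2 stood at 0.685 and 0.505 FPKM in the controls and at 0.635 and 0.434 FPKM after knockdown. In TLR2 the replicate numbers differed more than the groups did, with replicate 0 higher in each group. The log2 changes, from the fit with the lower filter, were 0.06 ± 0.07 (SE; 95% interval -0.11 to 0.23) for TLR6 and -0.06 ± 0.10 (SE; 95% interval -0.30 to 0.19) for TLR2. The level of TLR1 thus exceeded that of its partner TLR2 in each of the 4 libraries.

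**Figure D2:**
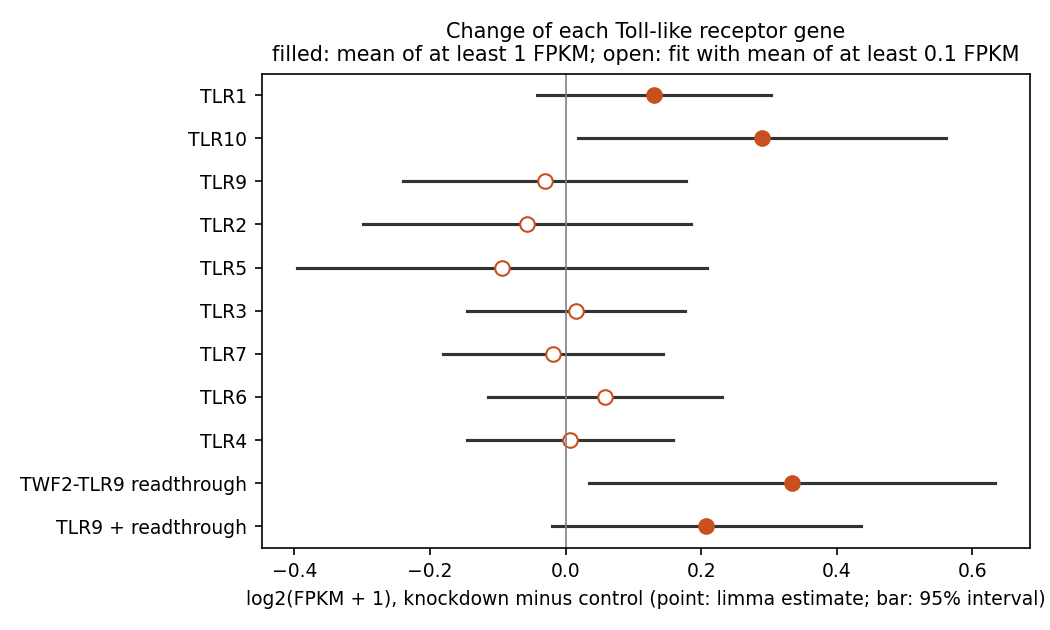
Log2 change (knockdown minus control, on log2(FPKM + 1)) of the 9 members above 0 and of the TLR9 models, with the limma estimate as a point and its 95% interval as a bar. The intervals of TLR10 and of the TWF2-TLR9 readthrough model lie above 0 before adjustment for the number of genes; the other intervals include 0.

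The bacterial sensors TLR4 and TLR5 were low. TLR4 stood at 0.235 and 0.233 FPKM in the controls and at 0.263 and 0.217 FPKM after knockdown, the narrowest range of the low members relative to its lowest value. TLR5 stood at 0.429 and 0.355 FPKM in the controls and at 0.473 and 0.155 FPKM after knockdown. Knockdown replicate 1 was thus the lowest library of TLR5 and knockdown replicate 0 the highest, 3.04 times as high, the widest spread in the family. At the recovered depth, over the principal transcript of 4267 bases, these values stand for about 110 and 193 fragments in the controls and 215 and 63 after knockdown. Counting error alone would be about 13% at the lowest and 6.8% at the highest of these. The log2 changes, from the fit with the lower filter, were 0.01 ± 0.06 (SE; 95% interval -0.14 to 0.16) for TLR4 and -0.09 ± 0.12 (SE; 95% interval -0.40 to 0.21) for TLR5.

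Among the endosomal receptors, those of RNA differed little between groups. TLR3 stood at 0.343 and 0.277 FPKM in the controls and at 0.339 and 0.309 FPKM after knockdown. TLR7, which lies on the X chromosome beside TLR8, stood at 0.324 and 0.260 FPKM in the controls and at 0.299 and 0.251 FPKM after knockdown. In both genes the groups overlapped and replicate 0 was the higher one in each group. The log2 changes, from the fit with the lower filter, were 0.02 ± 0.06 (SE; 95% interval -0.15 to 0.18) for TLR3 and -0.02 ± 0.07 (SE; 95% interval -0.18 to 0.14) for TLR7. TLR7 values stood for about 98 to 166 fragments, a counting error of 7.8% to 10% at these depths. The 1 added to each FPKM exceeds these levels, so the log2 scale understates differences of all members under 1 FPKM.

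TLR9, the receptor of CpG DNA, stood at 1.06 and 0.835 FPKM in the controls and at 0.876 and 0.929 FPKM after knockdown. Its groups overlapped, with the knockdown values between the control values. The means were 0.946 ± 0.157 and 0.903 ± 0.0379 FPKM (SD, n = 2 per group), and the log2 change, from the fit with the lower filter, was -0.03 ± 0.08 (SE; 95% interval -0.24 to 0.18). That value covers only part of the locus. TLR9 (chr3:52221080-52226163, minus strand, GRCh38) overlaps another listed gene model, ENSG00000173366.11 (chr3:52221081-52231190), which joins exons of the upstream gene TWF2, an actin-binding protein gene, to parts of both TLR9 exons. Of the 3870 exon bases of TLR9, 86.3% lie inside this TWF2-TLR9 readthrough model. Of its own 3804 exon bases, 3341 are shared with TLR9, 463 with TWF2 and 0 with neither. These are GENCODE 29 models, and those the authors counted with may differ.

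**Figure D3:**
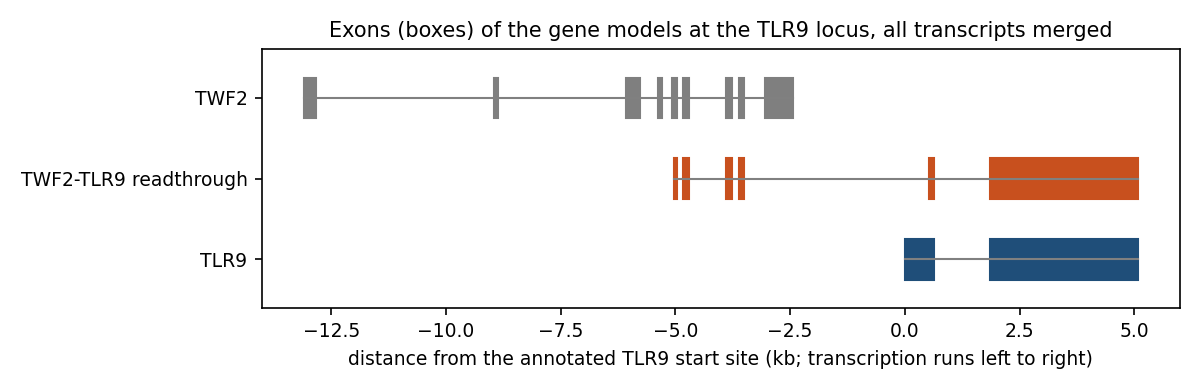
Exons (boxes) of TWF2, the TWF2-TLR9 readthrough model and TLR9, drawn to scale as distance in kb from the annotated TLR9 start site, with transcription running from left to right. All exon bases of the readthrough model lie in exons of TWF2 or TLR9.

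The readthrough model stood at 0.723 and 1.00 FPKM in the controls and at 1.16 and 1.54 FPKM after knockdown. Here the knockdown libraries were above the control libraries, with no overlap, unlike TLR9 itself. Of all tested genes, 22.5% showed this. The ratio of the means was 1.56. The change on log2(FPKM + 1) was 0.33 ± 0.12 (SE, 95% interval 0.03 to 0.63), which understates the ratio at levels this low. Its limma p was 0.034, or 0.27 adjusted over all genes. An unadjusted limma p under 0.05 was found in 16.6% of all tested genes. Without knockdown replicate 1 the log2 change was 0.22 (limma adjusted p = 0.51), and without control replicate 0 it was 0.23 (limma adjusted p = 0.62). TWF2 stood at 64.4 and 64.3 FPKM in the controls and at 60.1 and 63.9 FPKM after knockdown. The share of the readthrough model in the sum of both TLR9 models was 40.6% and 54.6% in the controls and 57.0% and 62.3% after knockdown. The split thus differed between the control libraries by more than between the knockdown libraries.

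With both models summed, a setting chosen after seeing the data, the TLR9 locus stood at 1.78 and 1.84 FPKM in the controls and at 2.04 and 2.47 FPKM after knockdown. The control libraries, which the separate models set in opposite orders, were close in the sum. The means were 1.81 ± 0.0414 and 2.25 ± 0.301 FPKM (SD, n = 2 per group), and their ratio was 1.24. The log2 change was 0.21 ± 0.09 (SE; 95% interval -0.02 to 0.44), with a limma adjusted p of 0.33. The direction for TLR9 therefore differed between its own model and the sum, and neither passed. Which model the fragments came from was not tested. The readthrough model also shares 463 exon bases with the far more abundant TWF2. Whether TWF2 fragments enter the sum was not tested either.

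Changes across all tested genes moved with base composition, and the tested members lie near one end of it. Over 12499 tested genes with a GENCODE transcript, the log2 change fell with the GC content of the longest transcript, with a Spearman rho of -0.41 (a description across genes, not over replicates). The median log2 change was 0.07 in the 10% of genes with the lowest GC content and -0.09 in the 10% with the highest. TLR1 and TLR10 have a GC content of 39.2% and 38.3%, and the readthrough model 61.9%. With the GC trend removed from each library, a setting chosen after seeing the data, the log2 change was 0.08 ± 0.07 (SE) for TLR1, with a limma adjusted p of 0.64, and 0.23 ± 0.11 (SE) for TLR10, with 0.41. For the readthrough model it was 0.41 ± 0.11 (SE), with a limma adjusted p of 0.26. The difference of TLR1 was thus smaller without the trend by a ratio of over 1.5, and that of the readthrough model was larger.

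**Figure D4:**
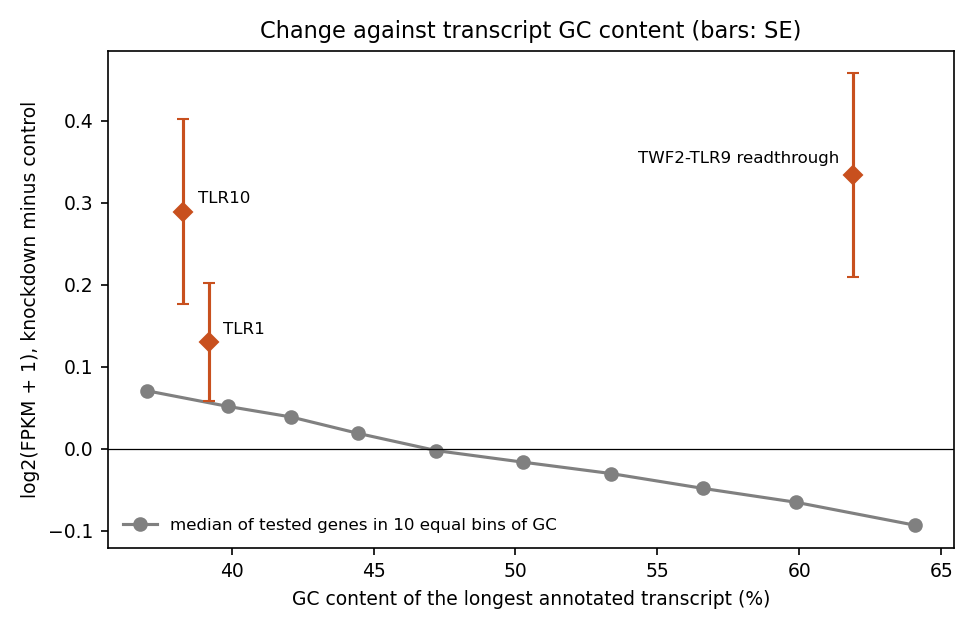
Log2 change (knockdown minus control) against GC content of the longest annotated transcript in percent; grey points are medians of the tested genes in 10 equal bins of GC content, diamonds are TLR1, TLR10 and the TWF2-TLR9 readthrough model with SE bars. The medians run from 0.07 at low to -0.09 at high GC content; TLR1 at 0.13 and TLR10 at 0.29 lie at the low end and the readthrough model at 0.33 lies at the high end.

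The main adaptor of the receptors and the chaperone of the endosomal ones were listed at higher levels than any member. MYD88, that adaptor, stood at 36.1 and 32.8 FPKM in the controls and at 32.5 and 33.5 FPKM after knockdown. UNC93B1, which carries endosomal receptors out of the endoplasmic reticulum, stood at 52.2 and 53.5 FPKM in the controls and at 47.3 and 50.8 FPKM after knockdown. These genes and others named below for their role alone were chosen after their values were seen. CD14, the co-receptor of TLR4, stood at 0.101 to 0.186 FPKM, while LY96, the other TLR4 co-receptor, stood at 6.70 to 9.45 FPKM. Over 6 lists of TLR pathway genes, 125 of 130 named genes were listed and 100 were tested with limma. Of these 100, 0 passed in either direction, where 0.0309% of all tested genes did; 7 had an unadjusted limma p under 0.05 on the higher side and 8 on the lower side, where 7.25% and 9.35% of all did. The median log2 change of the 100 was -0.05, against -0.01 over all tested genes, with 33 positive and 67 negative, where 6058 of all tested genes were positive and 6877 negative. Libraries did not overlap in 17 higher and 40 lower, where 22.5% and 27.7% of all tested genes did so.

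Adaptors and proximal kinases had 6 positive and 15 negative log2 changes in 21 tested genes, with a median of -0.05 and 0 past limma's adjusted test. The smallest p was that of UBE2N, which encodes the ubiquitin-conjugating enzyme that works with TRAF6, at 54.0 and 48.4 FPKM in the controls and at 58.7 and 62.8 FPKM after knockdown (limma adjusted p = 0.21). IKBKB, an IκB kinase gene, stood at a ratio of 0.902 and BTK, a B cell kinase gene and the most abundant of the list, at 0.909. PIK3AP1 (BCAP), the next most abundant, stood at 0.948. The kinase gene IRAK4, named for its role, stood at 1.12 with overlapping groups.

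Folding, trafficking and co-receptor genes had 6 positive and 11 negative log2 changes in 17 tested genes, with a median of -0.01 and 0 past the test. CTSB, a lysosomal protease gene, stood at 73.1 and 74.1 FPKM in the controls and at 65.4 and 61.6 FPKM after knockdown (limma adjusted p = 0.20). AP3B1, an adaptor complex subunit gene of endosomal transport, stood at a ratio of 1.10 and LY86 (MD-1), which pairs with CD180, at 0.891. HSP90B1 (GRP94), the folding chaperone of most TLRs and the most abundant of the list, stood at 361 and 392 FPKM in the controls and at 396 and 382 FPKM after knockdown, with overlapping groups.

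In the list of endosomal nucleic acid supply and the TLR7 to TLR9 branch, 4 of 15 tested genes were positive and 11 negative, with a median of -0.08 and 0 past the test. SLC15A4, the endolysosomal transporter that docks TASL, stood at 14.6 and 15.5 FPKM in the controls and at 17.3 and 17.8 FPKM after knockdown (limma adjusted p = 0.21). TASL, the adaptor for IRF5, stood at 248 and 242 FPKM in the controls and at 256 and 272 FPKM after knockdown. IRF5 and IRF7, the transcription factors of this branch and named for their role, stood at ratios of 0.859 and 0.916. SIDT2, a lysosomal membrane protein gene linked to RNA transport, stood at 0.812, AP3S1, another subunit of the endosomal adaptor complex, at 1.17, and HMGB1, a DNA-binding protein gene and the most abundant of the list, at 0.995. The lysosomal nuclease genes PLD3 and PLD4, named for their role, each stood at 0.901, with limma adjusted p of 0.28 and 0.29. Members of this one branch thus lay on both sides, none past the test.

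Negative regulators had 8 positive and 12 negative log2 changes in 20 tested genes, with a median of -0.04 and 0 past the test. TRIM38, a ubiquitin ligase gene, stood at a ratio of 1.11, SOCS1, a cytokine signalling inhibitor gene, at 0.776 and SIGIRR, a receptor that dampens TLR signals, at 0.914 (limma adjusted p = 0.25, 0.25 and 0.29). The abundant PTPN6, a phosphatase gene, stood at 1.15 and TNFAIP3 (A20), a deubiquitinase gene induced by NF-κB, at 0.949.

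Genes that TLR signalling is known to induce were split, with 7 positive and 8 negative log2 changes in 15 tested genes, a median of -0.03 and 0 past limma's adjusted test. IRF4, a B cell transcription factor gene, stood at 46.1 and 43.2 FPKM in the controls and at 51.0 and 55.6 FPKM after knockdown (limma adjusted p = 0.20). CD40, a co-stimulatory receptor gene, stood at a ratio of 0.892, REL, an NF-κB subunit gene, at 0.852, and MYC, the most abundant of the list, at 1.10. NFKBIA, the NF-κB inhibitor gene named for its role, belongs to the list of negative regulators and not to these 15. It stood at 59.8 and 62.1 FPKM in the controls and at 60.6 and 64.8 FPKM after knockdown, with overlapping groups. TNF, also named for its role, stood at 2.78 and 2.65 FPKM in the controls and at 2.86 and 3.74 FPKM after knockdown (limma adjusted p = 0.40). IL12B and PTGS2 were listed at 0 in every library, and IL6 in all except control replicate 1, at 0.0301 FPKM.

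**Figure D5:**
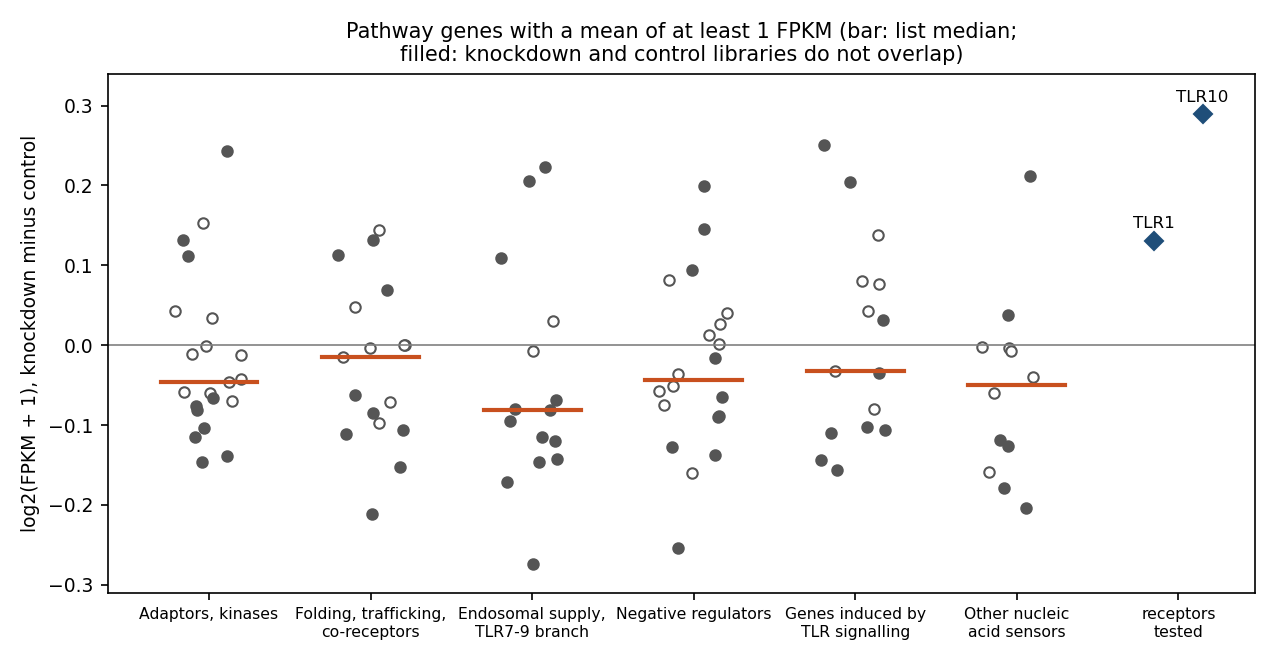
Log2 change (knockdown minus control) of each pathway gene with a mean of at least 1 FPKM in 6 lists, with TLR1 and TLR10 at the right; bars are list medians, and filled points are genes whose knockdown and control libraries do not overlap. The list medians lie between -0.08 and -0.01, and TLR10 at 0.29 lies above each of the 100 pathway genes drawn.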

How the data were processed

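Polyadenylated RNA of 4 BLaER1 libraries was sequenced by the authors, with TruSeq mRNA libraries, per the labels' protocols. The submitters' processing notes name hg19, Cuffdiff 2.2.1, TopHat2 2.0.14 and Bowtie2 2.2.5; options, annotation, strand setting and scaling are not stated in these sources. The deposited values were read as FPKM, since the ID column is named as Cuffdiff names it and the values are not whole.

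Values were tested as log2(FPKM + 1) by limma 3.58.1 (R 4.3.3) in HAL7 and all genes whose mean reached 1 FPKM. The fit used a mean-variance trend, a two-sided test and a threshold of 0.05 on p-values adjusted over all tested genes (Benjamini-Hochberg). It was also run on simulated data, in which changes were set only in genes at levels above every member except TLR1. That run does not show what the fit can detect at the levels of the other members. Members under the filter were read from a fit with a mean of at least 0.1 FPKM. Names were matched by Ensembl ID. Depth was taken from the steps of FPKM times length in 1215 genes with 1 transcript of at least 2500 bases, where 82.4% to 89.6% of low values came within 0.15 of a whole number of steps. Fragment numbers assume the principal transcript's length and are approximate, and counting errors cover counting only.

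The members and lists were chosen with earlier results of these data known. Named from each pathway list were the 3 genes of smallest p and the 2 of highest level among those tested, and from each marker list the 3 of highest level and defining genes at or near 0. Other settings tried were pseudocounts of 0.1 and 5, other filters, quantile normalization, median centring, no trend, the replicate number as a block and leaving out each library.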

Additional observations from a re-analysis of the deposited data

How the results depend on the processing

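The TLR members called stayed at 0 in limma under all 15 other settings, and the pathway genes called stayed at 0 under the 14 run for them. HAL7, TLR1, TLR10 and the readthrough model kept their direction and stayed short of the threshold under all settings run. The log2 change of TLR1 ranged from 0.07 to 0.19 (adjusted p 0.37 to 0.87), that of TLR10 from 0.15 to 0.43 (0.25 to 0.77), that of the readthrough model from 0.11 to 0.59 (0.21 to 0.70) and that of HAL7 from -0.60 to -0.07 (0.25 to 0.71). TLR10 was not tested at a mean of at least 5 FPKM, nor was the readthrough model. TLR9 turned from -0.03 to 0.21 when summed with the overlapping model, which adds that model's values by construction. Of all genes, 4 were called with limma, 2 with a pseudocount of 0.1, 1 with a mean of at least 5 FPKM, 1 with at least 0.1 FPKM, 0 without a filter (limma, 3002 of 28016 at an unadjusted p under 0.05), 11 without control replicate 0, 11 without control replicate 1, and 22 or 12 when knockdown replicate 0 or 1 was left out; the cause was not tested. With the replicate number as a block 19 were called, 10 higher and 9 lower, and TLR10 had an adjusted p of 0.28. Libraries of the same number deviated together only weakly (correlation 0.12 across genes), and the labels do not say that a number marks a shared culture. In fits without 1 library, the remaining library of that group was taken to vary as the other pair did. Median centring moved levels by at most 0.01 (log2). Depth limits the low members most: TLR5 and TLR6 rested on about 63 and 65 fragments in their lowest library.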

Other observations

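Other sensors of nucleic acids, which act outside the TLR family, were tested in 12 of 14 listed genes, with 2 positive and 10 negative log2 changes, a median of -0.05 and 0 past limma's adjusted test. IFI16, a DNA sensor gene and the most abundant of the list, stood at 64.3 and 62.5 FPKM in the controls and at 72.8 and 74.3 FPKM after knockdown (limma adjusted p = 0.19). OAS2, an interferon-induced sensor of double-stranded RNA, stood at 4.76 and 4.98 FPKM in the controls and at 4.28 and 3.90 FPKM after knockdown, and STING1, the adaptor of the cytosolic DNA pathway, at a ratio of 0.881.

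The tested genes most like TLR1 over the 4 libraries, by Pearson's r on log2(FPKM + 1), were CCDC82, WDR89 and OSBPL11, each with r above 0.99. Of 12934 genes compared, 99 reached 0.99. Each r rests on only 4 libraries, and the likeness was not tested. CD86, a co-stimulatory ligand that TLR signalling induces, was under the filter of the main test and was chosen after its values were seen. It stood at 0.337 and 0.391 FPKM in the controls and at 0.222 and 0.167 FPKM after knockdown. IL10, of the same list and also under the filter, was listed at 0 in both controls and stood at 0.0183 and 0.0953 FPKM after knockdown. BCL2A1 stood at 0.0252 and 0.0174 FPKM in the controls and was listed at 0 after knockdown. Per kilobase of transcript, 1 fragment stands for about 0.0166 and 0.00786 FPKM in the controls, so the BCL2A1 values lie near the floor. An exact 0 can be a failed estimate here too. IL10 and BCL2A1 were likewise chosen after their values were seen, since their groups did not overlap, as in CD86. How often this occurs among all genes at such levels was not determined. In the list's other genes under the filter the groups overlapped.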
